A study of Mus musculus with 6 samples.

Results

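The genes described here are the inhibitor of DNA binding genes Id1, Id2, Id3 and Id4, the homeobox gene Msx1, the inhibitory SMAD gene Smad6 and the ligand gene Bmp4, which are known as members or targets of bone morphogenetic protein (BMP) signalling. They were chosen by name among the 11542 probes of this Illumina mouse BeadChip for which an annotation was used here, all of them detected on at least 1 array, out of 45281 probes measured. Of these 11542, 8 were assigned to the 7 genes (of 7312 genes with a named probe), with 2 for Id2 and 1 for each of the other genes. Probes of these genes that no array detected could not be chosen. Transcript levels were read on 6 arrays, 2 for each of 3 groups of male 129 x MF1 cells, and the cells of every group carried the same Nanog transgene. Nanog PGCLCs were primordial germ cell-like cells, a culture model of the embryonic founders of sperm and eggs, taken on day 4 after epiblast-like cells were moved to GK15 medium with doxycycline at 0.7 µg/ml, added to induce Nanog. Cytokine PGCLCs were taken on day 4 in GK15 medium with BMP4 and BMP8A, each at 500 ng/ml. That medium also held 100 ng/ml of SCF, 50 ng/ml of EGF and 1000 U/ml of LIF. The embryonic stem cells (mESCs) were grown in N2B27 medium on fibronectin, with 1000 U/ml of LIF and the kinase inhibitors CHIR99021 (3 µM) and PD0325901 (1 µM). The sources used here do not say whether PGCLCs were sorted before RNA extraction. BMP4 and BMP8A are thus listed for the cytokine PGCLCs only, but they were added along with SCF, EGF and LIF, so a difference from either other group cannot be told apart by agent. Nothing in the labels says that replicates were separate cultures. The p-values thus set group differences only against the spread between arrays of the same group, and this spread may be technical. In such bulk RNA, fewer cells of a type and less RNA per cell cannot be told apart.

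BMP ligands bind paired type I and type II receptors, which phosphorylate SMAD1, SMAD5 and SMAD9, and these enter the nucleus with SMAD4 and switch on target genes. Id genes are among the most direct of these targets, and their proteins bind E proteins and keep them from DNA, which holds back differentiation, while SMAD6 feeds back to block the receptor SMADs. In the mouse embryo, BMP4 and BMP8B from the extraembryonic ectoderm make cells of the proximal epiblast competent to become germ cells, and in culture BMP4 is the agent normally used to induce PGCLCs. The comparisons below ask how these genes stood in PGCLCs made by Nanog alone, beside PGCLCs made with BMP and beside mESCs.

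Between 8788 and 10028 probes were detected on an array, a probe counting as detected where its detection p (its rank among the negative control beads) was below 0.01. Replicate arrays correlated at 0.991 to 0.994 across 10673 tested probes, and arrays of different groups at 0.924 to 0.973 (probes are no independent replicates). Of 8 stem cell markers, 7 and 7 were detected on the Nanog arrays, 7 and 8 on the cytokine arrays, and 8 and 8 on the mESC arrays, with a summed linear intensity of 26230 to 26312 in Nanog PGCLCs, 27150 to 28994 in cytokine PGCLCs and 28155 to 28215 in mESCs. Of the 7 germ cell markers, Prdm1 had no named probe, and the other 6 were detected on all 4 PGCLC arrays, with a summed linear intensity of 11291 to 11608 in Nanog PGCLCs, 14014 to 14403 in cytokine PGCLCs and 4172 to 4415 in mESCs. Nanog was read by 2 probes: the brighter was at 12.04 and 12.24 log2 units in Nanog PGCLCs, 12.52 and 12.52 in cytokine PGCLCs, and 12.33 and 12.47 in mESCs, and the other was at 12.72 and 12.59, 10.93 and 10.79, and 11.48 and 11.55 in the same order of groups. Which of these probes reads the transgene is not known here. No marker of endoderm or fibroblasts from the lists used here had a named probe.

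Promoters of Id2, Id3 and Msx1, which were detected in cytokine PGCLCs alone, are shown with that of Smad6, which SMAD proteins are known to regulate, so that the GC-rich motifs of BMP SMADs can be read in place. Each is a 300-base window of RefSeq for GRCm38.p6, with 250 bases before and 50 after the gene's start, printed 5′ to 3′ on the gene's strand, and the table used matched Id2, Id3, Id4, Msx1, Smad6 and Bmp4 (6 of the 7 genes), and not Id1. Capitals mark the palindrome GGCGCC, then the motif GGAGCC, which reads GGCTCC from the opposite strand, and the palindrome GTCTAGAC. Both strands were searched. Id2 lies at chr12:25096043-25096342 (minus strand), Id3 at chr4:136143572-136143871 (plus strand), Msx1 at chr5:37824536-37824835 (minus strand) and Smad6 at chr9:64022010-64022309 (minus strand).
Id2: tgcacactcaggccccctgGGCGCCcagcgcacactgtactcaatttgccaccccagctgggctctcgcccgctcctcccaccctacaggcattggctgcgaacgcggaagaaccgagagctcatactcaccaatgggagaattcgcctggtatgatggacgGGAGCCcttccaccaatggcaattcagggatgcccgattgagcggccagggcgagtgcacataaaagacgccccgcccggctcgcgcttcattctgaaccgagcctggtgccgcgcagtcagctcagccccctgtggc
Id3: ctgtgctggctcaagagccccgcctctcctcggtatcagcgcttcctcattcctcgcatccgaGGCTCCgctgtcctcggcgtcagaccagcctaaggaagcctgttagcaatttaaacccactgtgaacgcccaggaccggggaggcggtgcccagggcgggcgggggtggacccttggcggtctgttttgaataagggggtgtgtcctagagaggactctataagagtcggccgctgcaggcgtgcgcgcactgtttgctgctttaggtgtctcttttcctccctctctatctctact
Msx1: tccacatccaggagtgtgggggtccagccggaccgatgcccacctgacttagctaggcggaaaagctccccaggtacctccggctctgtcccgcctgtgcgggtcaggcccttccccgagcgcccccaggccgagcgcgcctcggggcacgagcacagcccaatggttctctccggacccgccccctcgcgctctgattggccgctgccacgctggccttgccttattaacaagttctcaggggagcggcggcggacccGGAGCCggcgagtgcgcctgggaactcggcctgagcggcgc
Smad6: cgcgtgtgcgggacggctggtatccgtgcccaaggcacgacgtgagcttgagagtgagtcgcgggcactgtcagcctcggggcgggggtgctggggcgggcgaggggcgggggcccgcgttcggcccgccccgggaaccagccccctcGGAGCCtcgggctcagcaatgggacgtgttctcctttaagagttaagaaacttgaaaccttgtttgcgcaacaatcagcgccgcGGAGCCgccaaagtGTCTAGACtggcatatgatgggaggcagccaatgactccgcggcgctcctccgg
GGCGCC, which occurs in 11.9% of the 32851 windows of this length in the table, was present in the Id2 and Id4 windows. GGAGCC, found in 30.8% of all windows, was present in the windows of Id2, Id3, Id4, Msx1, Smad6 and Bmp4, whose GC content ran from 60.0% to 73.3% against a median of 52.7% over all windows. GTCTAGAC, found in 0.213% of windows, occurred in the Smad6 window across the start site, at bases 247 to 254. These matches describe the letters of the windows, and the arrays do not bear on whether a SMAD binds there.

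Id1, whose protein is the Id family member most widely used as a readout of BMP signalling, was bright in cytokine PGCLCs and below detection in both other groups. Raw Id1 intensity was 300.5 and 391 in Nanog PGCLCs, 1375 and 1348 in cytokine PGCLCs, and 247 and 302 in mESCs. After background correction and quantile normalization, Id1 was at 6.82 and 6.79 log2 units in Nanog PGCLCs, 10.22 and 10.20 in cytokine PGCLCs, and 6.07 and 6.13 in mESCs. The groups did not overlap, and the gap between cytokine PGCLCs and the rest was far wider than the spread within any pair of arrays.

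Between Nanog and cytokine PGCLCs, the Id1 log2 difference was -3.40 ± 0.09 (limma fit, SE, n = 2 arrays in each group; adjusted p = 1.35e-06), the third largest in size of the 10673 tested probes. Id1, Id2, Id3 and Msx1 entered the test only through the cytokine arrays, where they were high. Their differences between cytokine PGCLCs and the other groups, with p-values and ranks here and below, are thus a description only. Because Id1 was not detected on either Nanog array, the difference is best given as a bound on the background-corrected scale, at least 9.995-fold lower in Nanog PGCLCs. Here and below, "at least" sets the mean of the bright group against the lowest signal of detected probes on each dim array, or the dim probe's own signal where higher. Cytokine PGCLCs stood at least 8.60-fold above mESCs (log2 difference 4.11 ± 0.09, adjusted p = 3.44e-07). On the authors' deposited value table, which lies close to values without background correction, the same Id1 differences were -2.18 for Nanog against cytokine PGCLCs and 2.37 for cytokine PGCLCs against mESCs. These fall short of the bounds, as did those of Id3 and Msx1, though not of Id2. All bounds given here and below thus hold for the background-corrected values alone.

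Id1 was also called higher in Nanog PGCLCs than in mESCs, by 0.71 ± 0.09 log2 units (adjusted p = 0.000381), though no fold can be given because neither group detected it. The Nanog arrays lay just short of detection, with a detection p of 0.0171 on each, against 0.235 and 0.198 in mESCs. Without background correction this difference was 0.29, and on the authors' table it was 0.19, still called in each case (adjusted p = 0.00118 and 0.025). With neither group above background, no order of Id1 levels is given between Nanog PGCLCs and mESCs.

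Id2 and Id3, the Id genes that together with Id1 respond to BMP in many cell types, showed the same cytokine-only detection at lower brightness. On its first probe, Id2 was at 5.66 and 5.69 log2 units in Nanog PGCLCs, 7.60 and 7.57 in cytokine PGCLCs, and 5.60 and 5.50 in mESCs. Id3 was at 6.25 and 6.12 in Nanog PGCLCs, 8.03 and 8.07 in cytokine PGCLCs, and 6.18 and 6.25 in mESCs. For both genes the cytokine arrays stood apart from all 4 others, none of which detected the probe.

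The Id2 difference between Nanog and cytokine PGCLCs was -1.91 ± 0.09 (adjusted p = 1.82e-05), at least 1.62-fold lower in Nanog PGCLCs. For Id3 it was -1.86 ± 0.10 (adjusted p = 2.13e-05), at least 2.24-fold lower. Against mESCs, cytokine PGCLCs were at least 1.39-fold higher for Id2 (2.04 ± 0.09, adjusted p = 3.43e-06) and at least 1.93-fold higher for Id3 (1.84 ± 0.10, adjusted p = 5.90e-06). On the authors' table these differences shrank to -0.95 and -0.93 between the PGCLC groups and to 0.87 and 0.76 against mESCs. Between Nanog PGCLCs and mESCs, Id2 differed by 0.13 ± 0.09 (95% interval -0.08 to 0.34, adjusted p = 0.267) and Id3 by -0.03 ± 0.10 (95% interval -0.25 to 0.20, adjusted p = 0.842), and neither was called. With both groups under detection, these intervals describe signal near background.

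The second Id2 probe was detected on 1 array only, cytokine PGCLC replicate 1, and missed the filter of 2 arrays. It was at 6.10 and 6.25 log2 units in Nanog PGCLCs, 6.99 and 6.69 in cytokine PGCLCs, and 5.63 and 6.23 in mESCs. The cytokine arrays were again the brightest, with mESC and Nanog arrays overlapping. With all 45281 probes tested and no filter (12.6% called for Nanog PGCLCs against mESCs, 12.4% for cytokine PGCLCs against mESCs and 3.15% between the PGCLC groups), the cytokine-to-mESC difference of this probe was 0.91 ± 0.20 (adjusted p = 0.0253), and that between Nanog and cytokine PGCLCs was -0.66 ± 0.20 (adjusted p = 0.162).

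Id4, the Id family member tied to neural and germline stem cells rather than to early BMP readouts, did not follow the other Id genes. It was at 7.07 and 6.99 log2 units in Nanog PGCLCs, 6.73 and 6.91 in cytokine PGCLCs, and 6.44 and 6.73 in mESCs. Both Nanog arrays detected it, 1 of 2 cytokine arrays did, and no mESC array did, so every value lay close to the detection limit. Id4 differed by 0.21 ± 0.12 between Nanog and cytokine PGCLCs (95% interval -0.08 to 0.50, adjusted p = 0.269) and by 0.23 ± 0.12 between cytokine PGCLCs and mESCs (adjusted p = 0.147). Neither neighbouring pair in the order Nanog PGCLCs, cytokine PGCLCs, mESCs was called, except that cytokine PGCLCs against mESCs passed without mESC replicate 2 (0.38, adjusted p = 0.0486). The difference of 0.45 ± 0.12 between Nanog PGCLCs and mESCs was called (adjusted p = 0.0176). That call was lost on the authors' table (0.13), with no filter, when mESC replicate 1 was left out (0.30) and when Nanog PGCLC replicate 1 was (0.40).

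Msx1, a homeobox repressor induced by BMP in limb, tooth and neural crest, was likewise detected in cytokine PGCLCs alone. It was at 6.36 and 6.25 log2 units in Nanog PGCLCs, 8.44 and 8.18 in cytokine PGCLCs, and 6.06 and 5.77 in mESCs. Both cytokine arrays lay above all 4 others. Msx1 was at least 2.69-fold lower in Nanog than in cytokine PGCLCs (-2.01 ± 0.13, adjusted p = 7.35e-05) and at least 2.31-fold higher in cytokine PGCLCs than in mESCs (2.40 ± 0.13, adjusted p = 7.74e-06). The authors' table gave -1.02 and 1.04. Nanog PGCLCs exceeded mESCs by 0.38 ± 0.13 (adjusted p = 0.042), with both groups under detection. This last call was lost under 8 of 17 alternatives, including no filter, an offset of 50 (0.26), cyclic loess (0.29) and the authors' table (0.02).

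**Figure D1:**
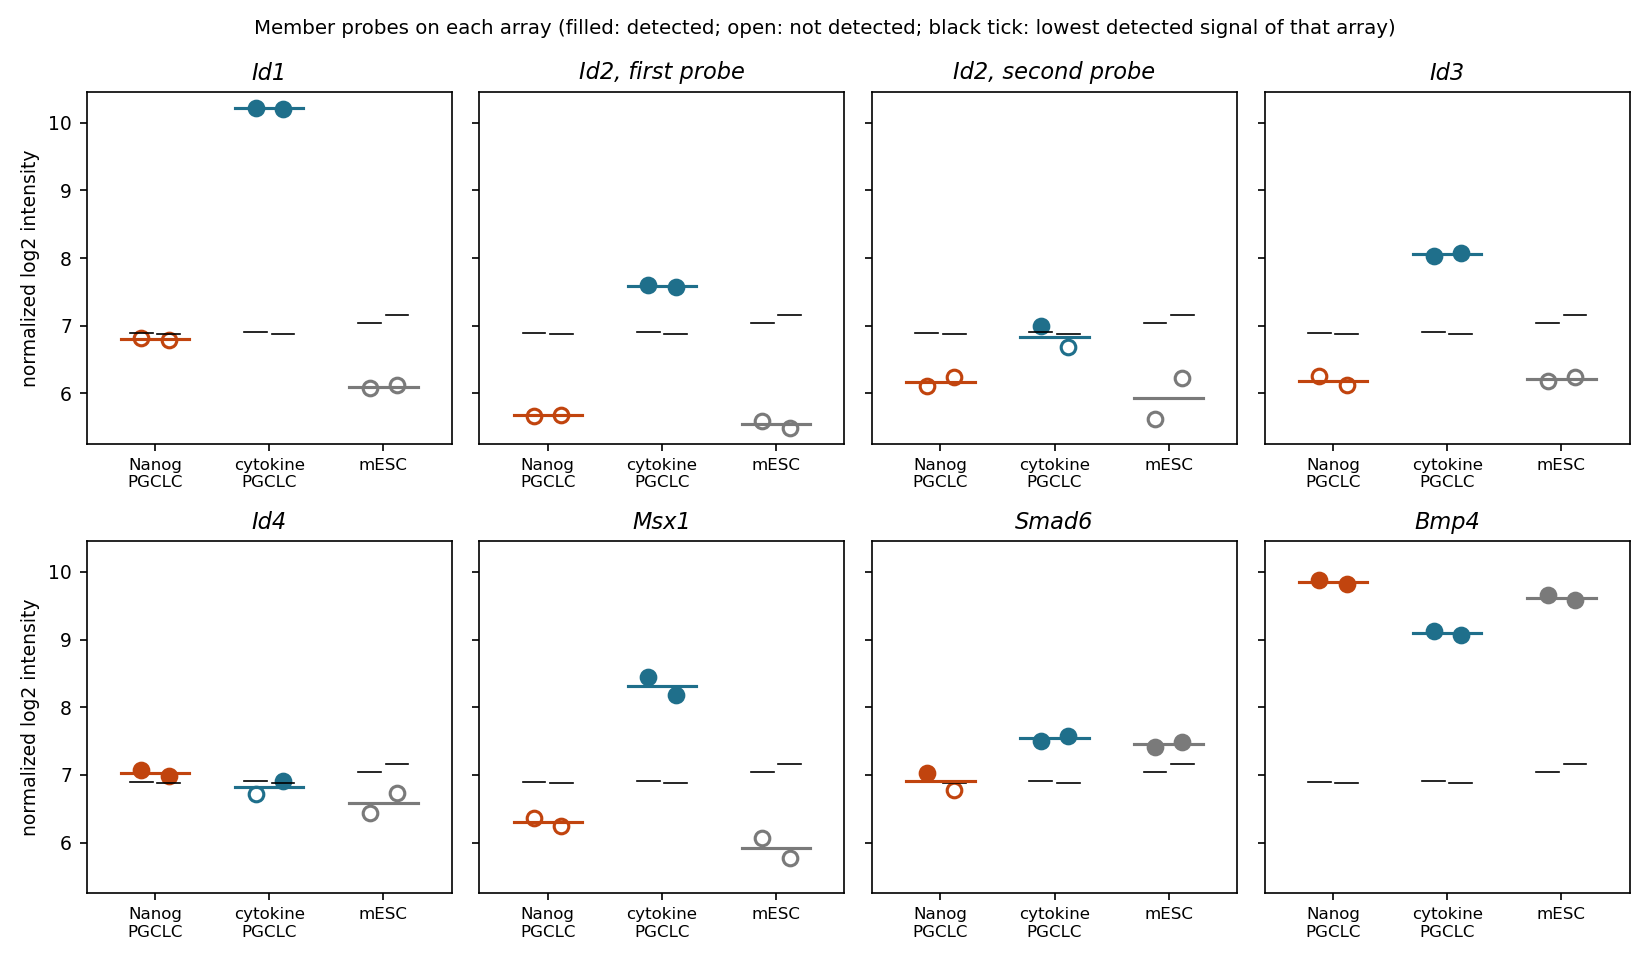
Normalized log2 intensity (vertical axis) of the 8 probes on each array, with Nanog PGCLCs, cytokine PGCLCs and mESCs from left to right and coloured lines at group means of 2 arrays. Id1, the first Id2 probe, Id3 and Msx1 were detected (filled points) on the cytokine arrays only, Bmp4 was detected on all 6, and black ticks give each array's lowest detected signal.

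Smad6, which blocks BMP receptor signalling and is itself induced by it, was detected on both mESC arrays as well as on both cytokine arrays. It was at 7.03 and 6.78 log2 units in Nanog PGCLCs, 7.51 and 7.58 in cytokine PGCLCs, and 7.42 and 7.49 in mESCs. The Nanog arrays were the lowest, and 1 of them did not detect it. Smad6 was lower in Nanog than in cytokine PGCLCs by -0.64 ± 0.11 log2 units (1.56-fold, adjusted p = 0.00699). It was lower in Nanog PGCLCs than in mESCs by -0.55 ± 0.11 (1.46-fold, adjusted p = 0.00424). Cytokine PGCLCs and mESCs, its neighbours at the top, differed by 0.09 ± 0.11 (95% interval -0.17 to 0.35, adjusted p = 0.518).

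The Smad6 call between the PGCLC groups was lost without cytokine PGCLC replicate 2 (-0.60, adjusted p = 0.0586). With arrays scaled to a common median, a scaling that moved the median of all tested probes to 0.21 for Nanog PGCLCs against mESCs and 0.15 for cytokine PGCLCs against mESCs, the Smad6 differences were -0.28 (not called) and 0.35 (called). On the authors' table Smad6 differed by -0.29 between the PGCLC groups and by -0.25 between Nanog PGCLCs and mESCs, both called.

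Bmp4, the ligand itself, was detected on every array and was highest in Nanog PGCLCs. It was at 9.87 and 9.82 log2 units in Nanog PGCLCs, 9.13 and 9.06 in cytokine PGCLCs, and 9.66 and 9.58 in mESCs. The raw intensities were 1084 and 1409, 766 and 731, and 901 and 1015 in the same order, and the cytokine arrays, grown with added BMP4 protein, carried the lowest Bmp4 signal. Bmp4 was 1.69-fold higher in Nanog than in cytokine PGCLCs (0.75 ± 0.09, adjusted p = 0.00137), a call kept under all 18 alternatives with values of 0.58 to 0.80. It was lower in cytokine PGCLCs than in mESCs by -0.53 ± 0.09 (1.44-fold, adjusted p = 0.00195), also called under all 18. Nanog PGCLCs and mESCs differed by 0.23 ± 0.09 (adjusted p = 0.0701). That last difference was not called, but it passed without background correction (0.18), on the authors' table (0.18), with median scaling (0.44) and with a variance trend (0.23).

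Across the 7 tested probes, 6 were called between Nanog and cytokine PGCLCs, 1 higher and 5 lower, where 20.2% of the 10673 tested probes were called, 10.5% higher and 9.73% lower. Between Nanog PGCLCs and mESCs, 3 were called higher and 1 lower, where 51.7% of all tested probes were called, 26.5% higher and 25.2% lower. Of those 3, Id1 and Msx1 were detected in neither group and Id4 on no mESC array, so these calls lie at or near background. Between cytokine PGCLCs and mESCs, 4 were called higher and 1 lower, where 52.8% were called, 27.8% higher and 25% lower. The 7 probes had a median log2 difference of -1.86 between Nanog and cytokine PGCLCs, 0.23 between Nanog PGCLCs and mESCs and 1.84 between cytokine PGCLCs and mESCs, with medians of all tested probes at -0.01, -0.01 and 0.00. Of the 7 probes, 4, those of Id1, Id2, Id3 and Msx1, had entered the test through the cytokine arrays alone and so had to differ from groups without detection, and these counts and medians are a description only. The count over all probes between the PGCLC groups rested on every array of those groups, since the 2157 calls fell to 789 and 899 without a cytokine replicate and to 1216 and 1091 without a Nanog replicate. All 3 comparisons use pairs of the same 3 groups and are not independent of each other.

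**Figure D2:**
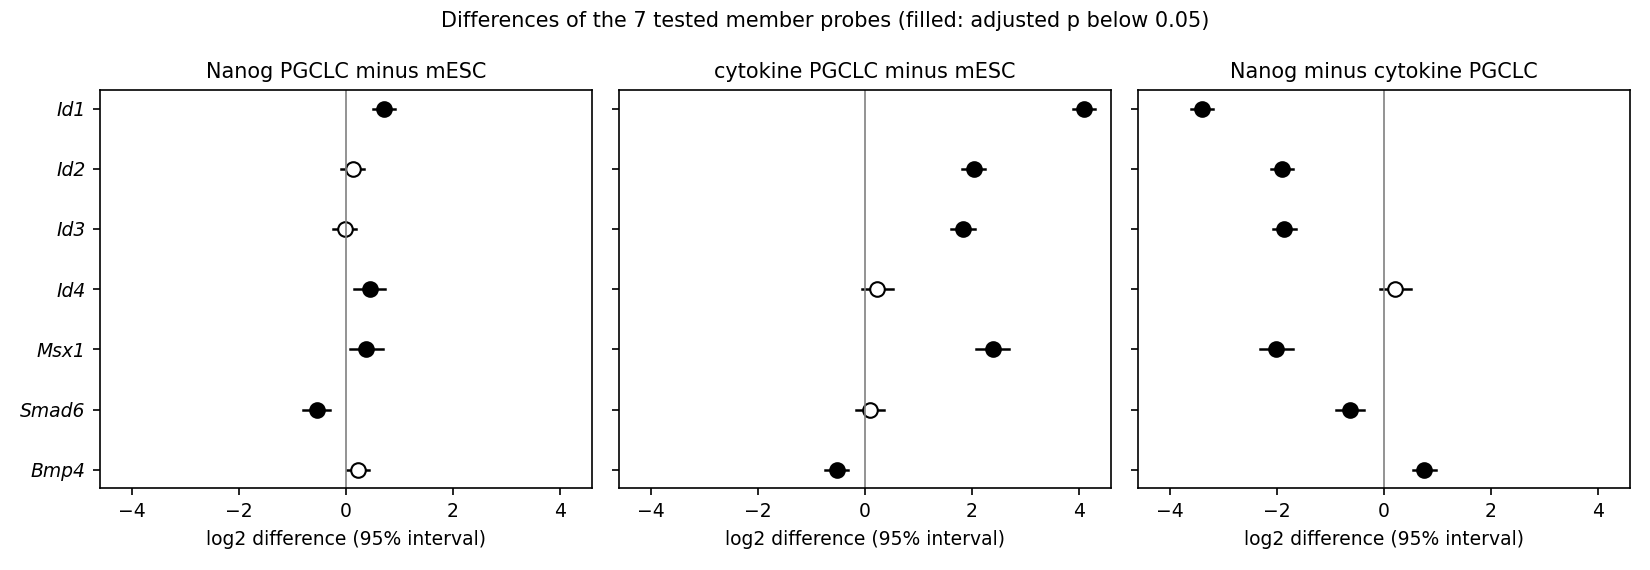
Log2 difference (horizontal axis, with 95% interval) of the 7 tested probes in Nanog PGCLCs minus mESCs, cytokine PGCLCs minus mESCs and Nanog minus cytokine PGCLCs. Id1 had values of 0.71, 4.11 and -3.40 in these panels and Bmp4 had 0.23, -0.53 and 0.75, and filled points passed the adjusted threshold of 0.05.

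The profiles of the members were compared as the Euclidean distance between mean-centred log2 values over the 6 arrays, where a small distance means the same shape and size. Id2 and Id3 were the nearest pair of members, at 0.27, followed by Id2 and Msx1 at 0.43 and Id3 and Msx1 at 0.67. Id1 was 1.84 from Msx1, 2.14 from Id2 and 2.32 from Id3, as its range over the arrays was wider (4.14 log2 units, against 1.95 to 2.67 for the other 3). Bmp4 was 2.89 to 5.10 from those 4 genes. Id1, Id2, Id3 and Msx1 were detected on the cytokine arrays alone, so each profile was mainly a step above background. A small distance from them, here and below, marks a step of like size, and shared regulation was not tested.

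Among 6822 other named genes, the nearest to Id1 were Hba-x, an embryonic alpha-like globin, at 0.71, Hbb-bh1, an embryonic beta-like globin, at 1.10, the chemokine Cxcl12 at 1.10, the peptide hormone gene Sct at 1.47 and the embryonic globin Hbb-y at 1.57. Hba-x was at 5.28 and 5.23 log2 units in Nanog PGCLCs, 8.81 and 8.92 in cytokine PGCLCs, and 5.23 and 5.25 in mESCs. Hbb-bh1 was at 5.70 and 6.17 in Nanog PGCLCs, 9.38 and 9.43 in cytokine PGCLCs, and 6.30 and 5.96 in mESCs. Both globins were detected on the cytokine arrays only.

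**Figure D3:**
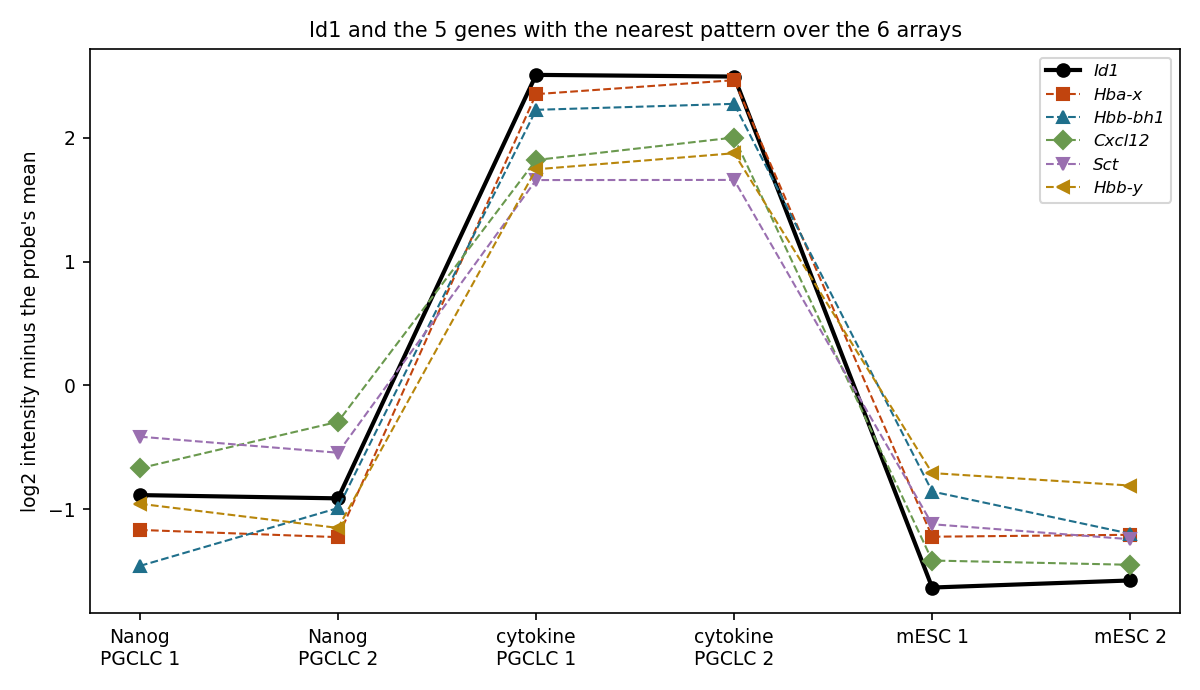
Log2 intensity minus the probe's own mean (vertical axis) for Id1 and its 5 nearest genes on each of the 6 arrays. All 6 probes peak on the cytokine arrays, and Hba-x runs closest to Id1, at a distance of 0.71.

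The genes nearest to Id3 were Pdlim4 (0.23), Id2 (0.27), Ephx2 (0.28), Fam169b (0.29) and Pip5k1b (0.33). Those nearest to Id2 were Ephx2 (0.22), Pdlim4 (0.22), Id3 (0.27), Dnaaf3 (0.28) and the cyclin gene Ccnd2 (0.29). Msx1 was nearest to Ccnd2 (0.36), Dnaaf3 (0.39), Id2 (0.43), Pdlim4 (0.48) and Sct (0.51), so Pdlim4, a LIM domain protein, was shared by these 3 genes. Smad6 was nearest to Ankrd10 (0.09), Abcc5 (0.11), Zfp35 (0.12), Irf2bp1 (0.17) and Bcap29 (0.17). Bmp4 was nearest to Gstp2 (0.10), Pptc7 (0.14), Dnaaf2 (0.15), Pigyl (0.18) and Noct (0.18).

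Some markers of other cell types were, like Id1 to Id3 and Msx1, highest on the cytokine arrays. Of 6 endothelial and blood markers, 4 had a named probe (Kdr, Hba-x, Hbb-bh1 and Pecam1) and Tal1 and Gata1 had none. Detected markers of this list numbered 2 and 1 on the Nanog arrays, 4 and 4 on the cytokine arrays, and 1 and 0 on the mESC arrays. Their summed linear intensity was 358 to 366 in Nanog PGCLCs, 1382 to 1429 in cytokine PGCLCs and 288 to 327 in mESCs. Of this list, Hba-x was at least 3.93-fold and Hbb-bh1 at least 5.74-fold lower in Nanog than in cytokine PGCLCs (adjusted p = 1.35e-06 and 1.93e-05), whereas Kdr and Pecam1 were not called (-0.07 ± 0.13 and 0.07 ± 0.12). Cdx2, the trophoblast and posterior mesoderm homeobox gene and the only marker of 5 in its list with a named probe, was at 5.77 and 6.10 log2 units in Nanog PGCLCs, 8.51 and 8.43 in cytokine PGCLCs, and 6.56 and 6.39 in mESCs. It was at least 3.00-fold lower in Nanog than in cytokine PGCLCs (adjusted p = 2.13e-05). Hba-x, Hbb-bh1 and Cdx2 had entered the test through the cytokine arrays alone, so their differences are a description only.

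Evx1, a primitive streak homeobox gene and the only one of 5 in the streak and mesoderm list with a named probe, was at 7.50 and 7.38 in Nanog PGCLCs, 9.29 and 9.24 in cytokine PGCLCs, and 8.99 and 8.92 in mESCs. It was 3.54-fold lower in Nanog than in cytokine PGCLCs (adjusted p = 2.35e-05). T, Eomes, Mixl1, Mesp1, Elf5, Hand1, Krt7 and Ascl2 had no named probe. The neural marker Nes was at 6.50 and 6.26 in Nanog PGCLCs, 7.03 and 7.25 in cytokine PGCLCs, and 7.16 and 7.58 in mESCs. Nes was at least 1.19-fold lower in Nanog than in cytokine PGCLCs (adjusted p = 0.0142). Cytokine PGCLCs were not called against mESCs for Nes (-0.24 ± 0.16, adjusted p = 0.244). Of the germ cell markers, 4 of 6 were called lower in Nanog than in cytokine PGCLCs, against 9.73% of all tested probes (Tfap2c, Nanos3, Dnd1 and Kit, with differences of -0.32 to -0.997 log2 units on their brightest probes). The part of these cells in the Id and Msx1 differences was not tested.

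The rest of the pathway was read from 69 genes in 8 lists, of which 24 had a named probe and 22 were tested, each by its brightest probe. Between Nanog and cytokine PGCLCs, 3 of the 22 were called higher, 3 lower and 16 were not called (10.5% and 9.73% of all tested probes were called higher and lower), with a median log2 difference of -0.03 against -0.01 for all tested probes. Against mESCs, 9 were higher and 4 lower in Nanog PGCLCs (median 0.16), and 8 were higher and 4 lower in cytokine PGCLCs (median 0.06). Totals over both directions lie near the background. Of all tested probes, 51.7% were called for Nanog PGCLCs and 52.8% for cytokine PGCLCs against mESCs. By direction, 26.5% of all tested probes were called higher and 25.2% lower in Nanog PGCLCs, and 27.8% and 25% in cytokine PGCLCs. None of the 12 other BMP ligand genes, Bmp8a and Bmp8b included, had a named probe, so Bmp4 was the one BMP ligand that could be read here. Names covered only probes detected on at least 1 array, so probes of the other ligands may have been undetected or unnamed.

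Among the receptors, 4 of 7 were tested, and 0 were called between the PGCLC groups on their brightest probes. The type I receptor Bmpr1a, which BMP4 uses, was at 7.78 and 7.88 log2 units in Nanog PGCLCs, 8.05 and 8.16 in cytokine PGCLCs, and 8.59 and 8.75 in mESCs. It was lower than in mESCs by -0.84 ± 0.10 in Nanog PGCLCs (adjusted p = 0.000334) and by -0.56 ± 0.10 in cytokine PGCLCs (adjusted p = 0.00238). The difference of -0.27 ± 0.10 between the PGCLC groups was not called (adjusted p = 0.102), while the other Bmpr1a probe, not detected on either Nanog array, was called lower (adjusted p = 0.0185). The activin type II receptor Acvr2b was higher than in mESCs in both Nanog PGCLCs (0.65 ± 0.10, adjusted p = 0.00086) and cytokine PGCLCs (0.68 ± 0.10, adjusted p = 0.000659). Acvr1, a second BMP type I receptor, and Bmpr2, the BMP type II receptor, were called in 0 of the 3 comparisons.

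Of the receptor and common SMADs, 3 of 6 were tested. Smad1, the BMP receptor SMAD, was at 8.74 and 8.67 log2 units in Nanog PGCLCs, 8.46 and 8.34 in cytokine PGCLCs, and 8.60 and 8.46 in mESCs, and was not called between the PGCLC groups (0.30 ± 0.10, adjusted p = 0.07). Its other probe was at 7.96 and 8.46, 7.68 and 7.54, and 8.44 and 8.65 in the same order, and was called at 0.60 ± 0.17 (adjusted p = 0.0389). On that probe cytokine PGCLCs were lower than mESCs by -0.94 ± 0.17 (adjusted p = 0.00209), so the Smad1 call depended on the probe. Smad2, an activin receptor SMAD, was higher in cytokine PGCLCs than in mESCs by 0.31 ± 0.10 (adjusted p = 0.0289), and Smad3 was called in 0 of the 3 comparisons.

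Among intracellular inhibitors, where 3 of 7 were tested, the SMAD corepressor Ski was the member called between the PGCLC groups. Ski was at 8.73 and 8.64 log2 units in Nanog PGCLCs, 7.68 and 7.69 in cytokine PGCLCs, and 7.76 and 7.55 in mESCs. It was 2.00-fold higher in Nanog than in cytokine PGCLCs (1.00 ± 0.11, adjusted p = 0.00068), and cytokine PGCLCs and mESCs differed by 0.03 ± 0.11 (adjusted p = 0.809). Its relative Skil was higher than in mESCs in both Nanog PGCLCs (2.27 ± 0.15, adjusted p = 1.65e-05) and cytokine PGCLCs (2.05 ± 0.15, adjusted p = 2.62e-05). Its other probe was detected on all 4 PGCLC arrays and on neither mESC array. Smurf1, a ubiquitin ligase for BMP SMADs, was at least 1.10-fold lower in cytokine PGCLCs than in mESCs (adjusted p = 0.0173). It was detected on 1 mESC array and 0 cytokine arrays, with values close to or below the detection limit, and its second probe missed the filter. Smad7 and Bambi had no named probe.

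Of 13 secreted antagonists and modulators, 2 were tested. Twsg1, a BMP-binding protein, was at 9.78 and 9.67 log2 units in Nanog PGCLCs, 8.93 and 9.14 in cytokine PGCLCs, and 9.19 and 9.06 in mESCs. The Nanog arrays lay above the rest, 1.61-fold above cytokine PGCLCs (0.69 ± 0.11, adjusted p = 0.00484) and 1.52-fold above mESCs (0.61 ± 0.11, adjusted p = 0.00252). Fstl1 was higher than in mESCs in both Nanog PGCLCs (0.91 ± 0.12) and cytokine PGCLCs (1.02 ± 0.12), with adjusted p of 0.000381 and 0.000212.

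Of 11 other BMP targets, 3 were tested, and all 3 were called lower in Nanog than in cytokine PGCLCs, against 9.73% of all tested probes. The list was chosen with earlier results of these data known, so this count is a description only. Dlx5 had a named probe but missed the filter. It was at 6.46 and 6.38 log2 units in Nanog PGCLCs, 6.49 and 6.97 in cytokine PGCLCs, and 6.68 and 7.07 in mESCs. Gata2, a transcription factor of blood and trophoblast, was at 6.91 and 7.12 log2 units in Nanog PGCLCs, 9.32 and 9.40 in cytokine PGCLCs, and 7.15 and 6.61 in mESCs. It was 5.09-fold lower in Nanog than in cytokine PGCLCs (-2.35 ± 0.17, adjusted p = 0.000111), while Nanog PGCLCs and mESCs overlapped (0.14 ± 0.17, adjusted p = 0.529). Hey1, a helix-loop-helix repressor induced by Notch and BMP, was at 7.57 and 7.49 in Nanog PGCLCs, 9.19 and 9.26 in cytokine PGCLCs, and 6.11 and 6.20 in mESCs, where it was not detected. Hey1 was 3.24-fold lower in Nanog than in cytokine PGCLCs (-1.69 ± 0.09, adjusted p = 3.03e-05), and at least 1.35-fold higher in Nanog PGCLCs than in mESCs (adjusted p = 1.90e-05). Tfap2a was at 7.10 and 6.82 in Nanog PGCLCs, 7.82 and 7.96 in cytokine PGCLCs, and 8.05 and 8.16 in mESCs, and was 1.91-fold lower in Nanog than in cytokine PGCLCs (-0.93 ± 0.12, adjusted p = 0.0017). As with Smad6, the lowest Tfap2a signal was in Nanog PGCLCs and cytokine PGCLCs were not called against mESCs (-0.21 ± 0.12, adjusted p = 0.168).

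Tcf4, the only E protein gene with a named probe and a partner of Id proteins, differed by -0.02 ± 0.12 between Nanog and cytokine PGCLCs (adjusted p = 0.915) and was higher in cytokine PGCLCs than in mESCs by 0.34 ± 0.12 (adjusted p = 0.0456). In the Nodal and activin branch, which signals through SMAD2 and SMAD3, 6 of 10 genes were tested. Lefty1, a secreted Nodal inhibitor, was at 12.05 and 12.02 log2 units in Nanog PGCLCs, 9.86 and 9.84 in cytokine PGCLCs, and 9.79 and 9.83 in mESCs. It was 4.56-fold higher in Nanog than in cytokine PGCLCs (2.19 ± 0.09, adjusted p = 1.21e-05). Nodal, Tdgf1, Lefty2, Gdf3 and Foxh1 were not called between the PGCLC groups on their brightest probes, with differences from -0.33 to 0.34, though the other Foxh1 probe, not detected on either Nanog array, was called lower (adjusted p = 0.0163). Against mESCs, Lefty2 was higher in Nanog PGCLCs (1.15 ± 0.12, adjusted p = 0.000158) and in cytokine PGCLCs (0.81 ± 0.12, adjusted p = 0.000911). Gdf3 was lower in Nanog PGCLCs (-0.54 ± 0.10) and in cytokine PGCLCs (-0.35 ± 0.10), with adjusted p of 0.00234 and 0.0164.

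**Figure D4:**
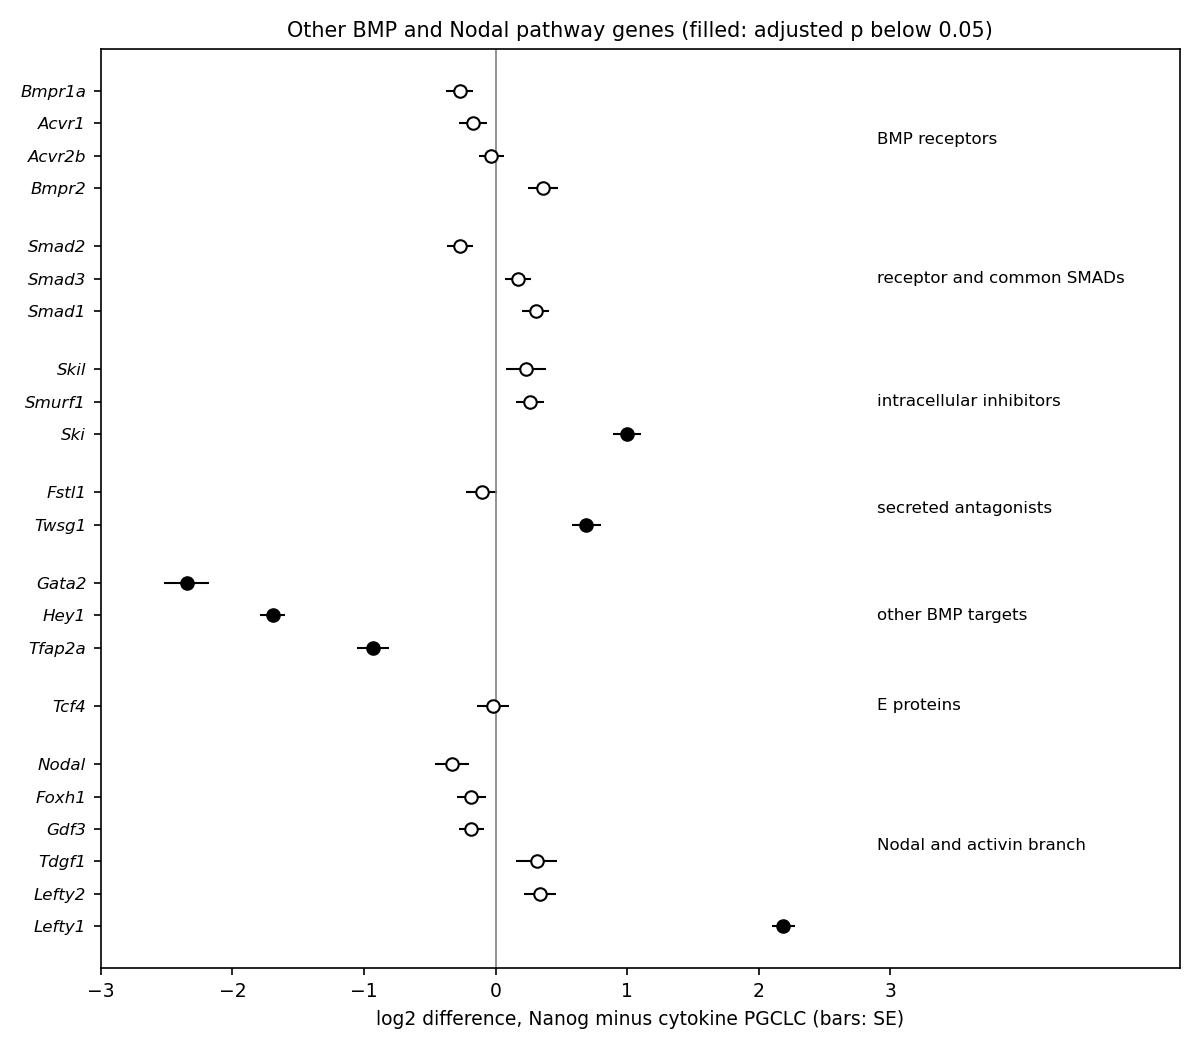
Log2 difference of Nanog minus cytokine PGCLCs (horizontal axis, bars are SE, n = 2 arrays per group) for the 22 tested pathway genes, ordered by list. Gata2 (-2.35), Hey1 (-1.69) and Tfap2a (-0.93) lie to the left, Lefty1 (2.19), Ski (1.00) and Twsg1 (0.69) to the right, and the 16 open points were not called.

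**Figure D5:**
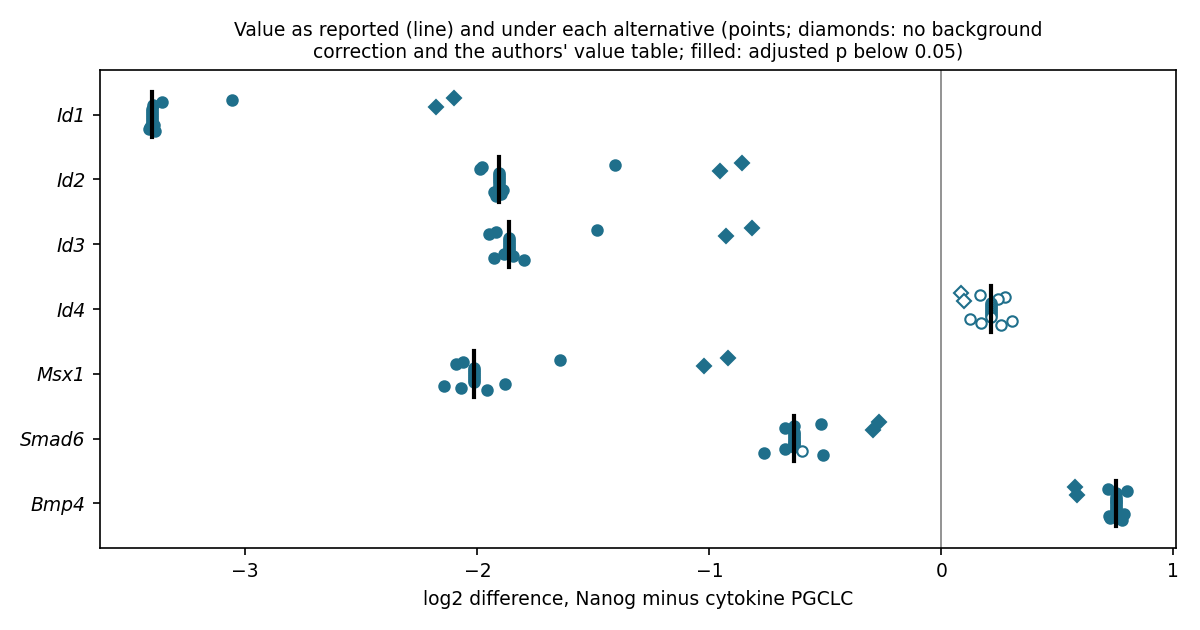
Log2 difference of Nanog minus cytokine PGCLCs (horizontal axis) for the 7 tested probes as reported (black line) and under each processing alternative (points). Without background correction and on the authors' table (diamonds) the Id1 value was -2.10 and -2.18 in place of -3.40, the Smad6 call was lost without cytokine PGCLC replicate 2, and Id4 was called under none.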

How the data were processed

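Illumina mouse BeadChips were run for 6 samples, whose 3 groups come from the labels. Per the labels' protocols, RNA was column-purified and turned into biotinylated cRNA. The authors deposited 1 intensity per probe and array, neither normalized nor background subtracted judging by the values, with detection p-values that place each probe among that array's negative controls. The authors' deposited log2 values (11542 probes, those detected on at least 1 array) were quantile normalized, judging by the values (the submitters' processing notes list limma). Here, intensities were corrected with normexp in limma 3.58.1 (R 4.3.3; negative controls inferred from detection p, offset 16), logged and quantile normalized. Probes with detection p below 0.01 on at least 2 arrays (10673) were fitted in 1 limma model (lmFit, eBayes, 3 residual and 4.99 prior degrees of freedom), with two-sided p-values adjusted across every tested probe (Benjamini-Hochberg) and calls below 0.05.

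Probes were named through GEO's platform annotation, given for the authors' table (10057 with 1 symbol, 4 with several, 1481 with none), and 10050 matched RefSeq by Entrez identifier. A gene with no named probe there is not analysed here. List genes were read by their probe with the highest mean. Named were all members, every list gene called between the PGCLC groups, up to 4 per list against mESCs, and the 5 nearest profiles of members called between the PGCLC groups (so none for Id4). List genes outside this rule were named after their values were seen. Members and lists were chosen with earlier results of these data known. The fit was tested on simulated data. Alternatives covered background, offset, scaling, the authors' table, filters, variance trend, probes per gene, groups in the fit, a replicate block and each array left out. Protein and probe sequences were not used here, and array number limits the precision.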

Additional observations from a re-analysis of the deposited data

Results flagged for a closer look

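A called difference between Nanog and cytokine PGCLCs, which share the mESCs as their comparison, set apart 6 of the 7 tested member probes (limma, adjusted over all tested probes, of which 20.2% were called). Of these, Id1, Id2, Id3 and Msx1 entered the test only through the cytokine arrays where they were high, so their differences are a description. The log2 difference of Nanog minus cytokine PGCLCs was -3.40 for Id1, -1.91 for Id2, -1.86 for Id3, -2.01 for Msx1, -0.64 for Smad6 and 0.75 for Bmp4. For Smad6 and Bmp4 the fitted differences from mESCs had opposite signs: -0.55 in Nanog PGCLCs and 0.09 in cytokine PGCLCs for Smad6, and 0.23 in Nanog PGCLCs and -0.53 in cytokine PGCLCs for Bmp4, of which -0.55 and -0.53 were called. Signs also differed for Id3, at -0.03 in Nanog PGCLCs (not called, and detected in neither group) and 1.84 in cytokine PGCLCs (called).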

How the results depend on the processing

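Over the 7 tested member probes in 3 comparisons, 343 values under the alternatives stayed on the same side of the threshold, 14 lost a call, 6 gained a call and 0 called values changed sign. Between the PGCLC groups, Id1, Id2, Id3, Msx1 and Bmp4 were called under every alternative run that tested them. For Id1, Id2, Id3 and Msx1, detected on the cytokine arrays alone, these repeated calls are a description only. The alternatives also overlap, since leaving out an array of the group not compared repeats the fit of only the 2 groups compared. Counts of alternatives are thus no counts of independent checks. Without background correction, Id2 was at -0.86, Id3 at -0.82 and Msx1 at -0.92. Requiring detection on 4 arrays left 2 member probes in the test (Smad6 and Bmp4). Of these, 1 was called for Nanog PGCLCs against mESCs and 1 for cytokine PGCLCs against mESCs. Of the 9401 probes then tested, 5018 and 5078 were called in these comparisons, so the member counts lie near the background. Between Nanog and cytokine PGCLCs 2 were called, where 20.2% of all tested probes were called under the filter of 2 arrays. With no filter, 2 of 8 member probes were called for Nanog PGCLCs against mESCs, where 12.6% of all 45281 probes were called. Between the PGCLC groups, 1425 probes in all (3.15%) were then called. With 1 probe per gene (6823 tested) 3734 were called for cytokine PGCLCs against mESCs. Leaving out each array in turn, with the lone array of a group assumed to vary like the others, gave 2 to 4 member probes called for Nanog PGCLCs against mESCs, and 789 to 2178 probes called between the PGCLC groups. Median scaling moved the share called higher among all called probes to 76.6% for Nanog PGCLCs against mESCs, 71.8% for cytokine PGCLCs against mESCs and 64.8% between the PGCLC groups, in place of 51.3%, 52.7% and 51.8%. The cause of these shifts was not tested. The labels number replicates 1 and 2 in each group without saying that a number marks a shared batch, and deviations of replicate 1 from the group mean correlated at 0.00 to 0.08 between groups. With the replicate number as a block, 5558, 5631 and 2084 probes and 4, 5 and 6 member probes were called in the same order of comparisons. Signal over background limits Id1, Id2, Id3 and Msx1 outside cytokine PGCLCs, and Id4 throughout.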
